A study of Mus musculus with 4 samples.

Results

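The 9 genes described here are Rnf224, R3hdml, Rptn, Sgsm1, Cyp3a57, Ptpn5, Pxylp1, Sec14l4 and Krt87, out of 21883 protein-coding genes of the mouse annotation. They were selected on the reads of these data, for many reads over the locus in adult or in mature luminal nuclei. Their difference between stages and their height in mature luminal nuclei are therefore given as descriptions without a test. Chromatin accessibility was read by single-nucleus ATAC-seq, in which the Tn5 transposase cuts and tags open DNA, in wild-type mammary gland cells of the CD1 strain, an outbred laboratory mouse. The labels give a sort for EpCAM and against lineage markers in every sample, a gate that enriches epithelium. The fetal group was taken at embryonic day 18 and the adult group at 8 weeks, with 2 biological replicates each and no allele or agent in either group. The labels do not say how many animals were pooled in a replicate, and sex was not used.

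The adult mammary epithelium is a bilayer of luminal cells around the duct and contractile basal cells outside them. Luminal cells are divided into progenitors, which give rise to milk-producing cells, and mature cells, many of which carry the receptors for oestrogen, progesterone and prolactin and pass hormonal signals to their neighbours. An open regulatory region exposes DNA to transcription factors, so a locus that is open in 1 cell type carries a trace of that cell type's regulation. It is not a measure of the gene's expression.

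The libraries held 882 and 1695 fetal nuclei and 2465 and 2804 adult nuclei, 7846 in all, with 6028168 to 19304830 reads in the listed nuclei of a library, and no barcode was shared between libraries. The authors' deposited table placed each nucleus in 1 of 14 classes, and names were given here from marker genes. Classes 2 and 11 raised 12 and 9 of 13 mature luminal markers, among them Esr1, Pgr and Prlr, and no luminal progenitor, basal or immune marker, and were called mature luminal-like. Classes 3 and 7 in the adult and 5 and 9 in the fetus were luminal progenitor-like, and classes 1 and 8 in the adult and 4 in the fetus were basal-like. Class 10 raised 7 mature luminal and 7 progenitor markers and was called luminal-like only. Class 6 was stromal-like, and classes 12, 13 and 14 were left unnamed. Of class 2's 10 genes with the largest fold over the other classes, 6 were members (Krt87, R3hdml, Cyp3a57, Rptn, Sec14l4 and Rnf224), and none was a marker. Mature luminal-like nuclei numbered 1002 and 1074 in the adult replicates and 3 and 7 in the fetal ones. In sums over all nuclei of a library, fewer nuclei of a type and fewer reads per nucleus cannot be told apart.

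Reads over each gene, from its start to its end with 2 kb added on either side, were counted per library and divided by the library's reads in listed nuclei and scaled to 1000000 reads (CPM). Levels across genes are not compared on this scale because the spans run from 2.312 kb (Rnf224) to 69.353 kb (Pxylp1). Rptn, which encodes repetin, a structural protein of the cornified layer of skin, had fetal levels of 0.332 and 0.443 CPM, from 2 and 7 reads, and adult levels of 6.26 and 7.72 CPM, from 85 and 149 reads. Both adult libraries lay far above both fetal libraries, and the adult over fetal ratio of the pooled CPM was 17.3 (95% exact interval 8.94 to 38.2). That interval covers counting error only. Krt87, a type II keratin of the hair keratin group, had 5.47 and 5.32 CPM in the fetus and 45.04 and 39.2 in the adult. Cyp3a57, a cytochrome P450 of the drug and steroid oxidising 3A family, had 4.15 and 3.92 CPM in the fetus and 28.0 and 29.8 in the adult. For each gene the fetal libraries sat close together and below both adult libraries.

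R3hdml, which encodes a secreted protein of the CAP family, had 4.64 and 3.67 CPM in the fetus and 27.3 and 23.3 CPM in the adult. Sec14l4, a lipid-binding protein of the SEC14 family, had 5.47 and 5.44 CPM in the fetus and 31.6 and 29.0 CPM in the adult. Rnf224, a RING finger protein, had 9.29 and 8.61 CPM in the fetus and 36.8 and 30.2 CPM in the adult. For these genes too the stages did not overlap. Ptpn5, which encodes the striatal-enriched tyrosine phosphatase known from neurons, had 23.1 and 28.4 CPM in the fetus and 87.8 and 80.9 CPM in the adult. Sgsm1, a regulator of Rab and Rap small GTPases, had 37.8 and 30.1 CPM in the fetus and 66.0 and 74.5 CPM in the adult. Pxylp1, a phosphatase that acts on the xylose of proteoglycan linkers, had 56.9 and 59.8 CPM in the fetus and 114.9 and 109.9 CPM in the adult. The adult to fetal ratios of Ptpn5, Sgsm1 and Pxylp1 were the smallest of the list.

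**Figure D1:**
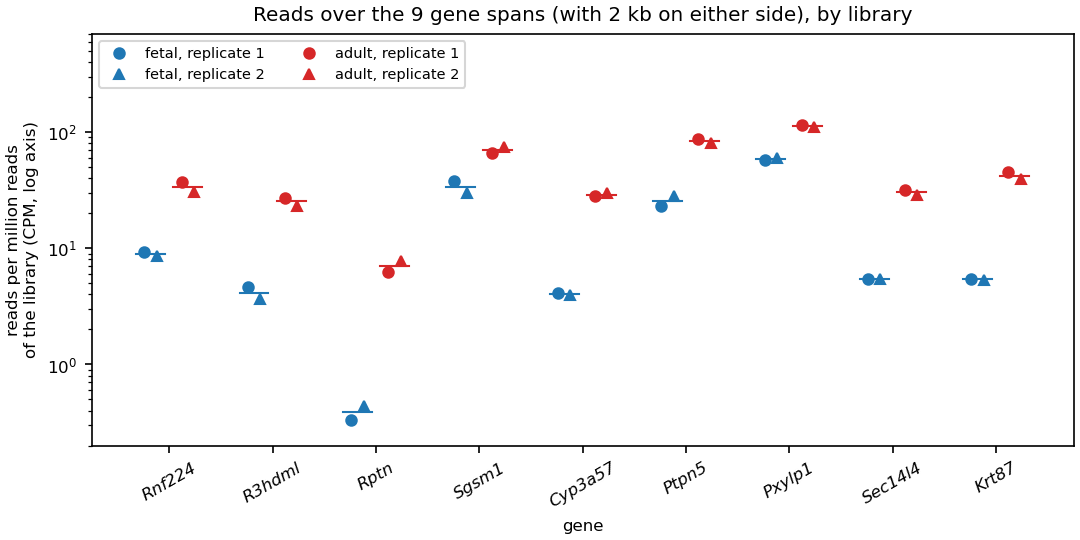
CPM of the library (vertical log axis) over the 9 gene spans (horizontal axis); circles and triangles are replicates 1 and 2, blue is fetal, red is adult, and lines are means of 2 libraries. Every adult point lies above both fetal points of its gene. Between the means, the gap on the log axis is widest at Rptn (points 0.332 and 0.443 against 6.26 and 7.72) and narrowest at Pxylp1 (56.9 and 59.8 against 114.9 and 109.9).

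In the edgeR quasi-likelihood fit over all genes, the log2 difference of adult over fetal was 4.06 ± 0.50 (SE) for Rptn, 2.96 ± 0.17 for Krt87 and 2.85 ± 0.20 for Cyp3a57. It was 2.64 ± 0.21 for R3hdml, 2.46 ± 0.18 for Sec14l4 and 1.91 ± 0.17 for Rnf224. It was 1.68 ± 0.14 for Ptpn5, 1.08 ± 0.14 for Sgsm1 and 0.94 ± 0.11 for Pxylp1, with 2 libraries a stage throughout. All 9 members were called higher in the adult at an adjusted p under 0.05, where 10.9% of 18804 genes were, and since this contrast chose them nothing is read from the count. The median log2 difference was 2.46 over the members and -0.01 over all genes tested.

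Within the adult libraries, CPM was recomputed per class set, dividing by the reads of those nuclei. Rptn had 13.8 and 15.6 CPM in the mature luminal-like nuclei of replicates 1 and 2, 0.426 and 1.17 in luminal progenitor-like nuclei (2 and 6 reads) and 0 and 0.751 in basal-like nuclei (0 and 3 reads). Cyp3a57 had 57.4 and 58.1 CPM in mature luminal-like, 2.13 and 5.06 in progenitor-like and 0 and 5.01 in basal-like nuclei. R3hdml had 54.0 and 46.2 CPM in mature luminal-like, 5.97 and 5.44 in progenitor-like and 1.24 and 3.00 in basal-like nuclei. These loci, and Sec14l4 with 60.6 and 56.6 CPM against at most 8.52, were low in the progenitor-like and basal-like sets. The unnamed adult class 14 (25 and 59 nuclei), which raised 9 of 13 mature luminal and 6 of 10 basal markers, was not low for all of them. It had 30.5 and 35.8 CPM for Cyp3a57, 22.9 and 22.2 for R3hdml and 7.62 and 30.7 for Sec14l4. In basal-like nuclei of replicate 1, a count of 0 allows up to 2.28 CPM for Rptn and for Cyp3a57.

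Rnf224 and Krt87 had a second, lower level in luminal progenitor-like nuclei. Rnf224 had 60.2 and 51.5 CPM in mature luminal-like, 23.2 and 22.8 in progenitor-like and 4.33 and 1.502 in basal-like nuclei. Krt87 had 78.9 and 67.2 CPM in mature luminal-like, 26.4 and 20.8 in progenitor-like and 2.48 and 5.01 in basal-like nuclei. For both genes the order mature, progenitor, basal held in each adult replicate without overlap. Ptpn5 had the reverse order of the lower sets, with 171 and 151 CPM in mature luminal-like, 9.80 and 12.3 in progenitor-like and 31.0 and 29.3 in basal-like nuclei. Sgsm1 had 118 and 147 CPM in mature luminal-like nuclei and did not differ between progenitor-like (16.6 and 15.2) and basal-like nuclei (16.7 and 13.5) beyond the spread of the replicates. Pxylp1 had 169.9 and 156 CPM in mature luminal-like nuclei, and still 72.0 and 79.1 in progenitor-like and 60.7 and 57.6 in basal-like nuclei. In adult stromal-like class 6 (82 and 75 nuclei) Ptpn5 had 54.4 and 58.8 CPM, Sgsm1 33.1 and 51.9, and Pxylp1 66.3 and 91.7. For Ptpn5 and Sgsm1 these levels lay above the progenitor-like and basal-like ones. The other members had at most 10.4 CPM there. The description of loci opened mainly in mature luminal nuclei therefore held least well for Pxylp1.

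**Figure D2:**
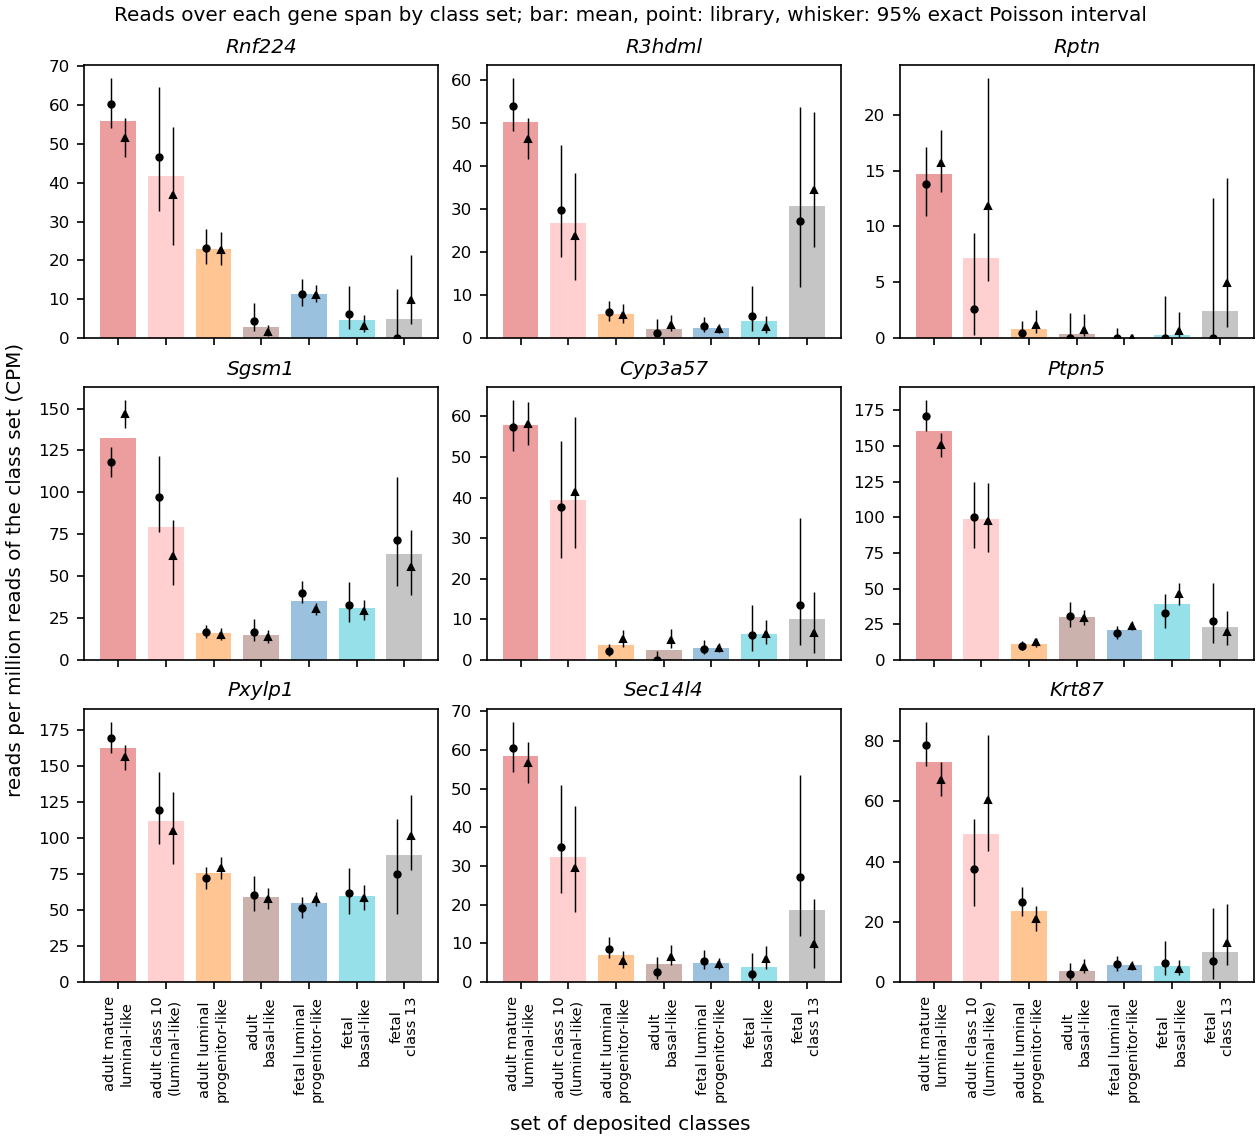
CPM of the class set (vertical axis, linear from 0, a scale of its own per gene) for 7 sets of deposited classes; bars are means of 2 libraries, circles and triangles are replicates 1 and 2, and whiskers are 95% exact Poisson intervals of the counts. The mature luminal-like bar is the tallest in all 9 panels, Rnf224 and Krt87 step down through the progenitor-like bar, and Pxylp1 stays above 50 in each set.

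The log2 ratio of the mature luminal-like level to the mean of classes 1, 3, 7, 8 and 10, with 0.5 CPM added to each, was 2.82 ± 0.95 (SD, n = 2) for Rptn, 2.48 ± 0.06 for R3hdml and 2.44 ± 0.35 for Cyp3a57. It was 2.38 ± 0.04 for Sec14l4, 2.19 ± 0.57 for Sgsm1 and 2.11 ± 0.10 for Ptpn5. It was 1.82 ± 0.36 for Krt87, 1.53 ± 0.04 for Rnf224 and 1.08 ± 0.05 for Pxylp1. All 9 members reached a log2 ratio of 1 in both adult replicates, as did 2.39% of 18804 genes, and the medians were 2.19 over the members and 0.04 over all genes. Adding 0.5 CPM understates the ratio of nearly empty loci such as Rptn. Without class 10 among the others, a setting chosen after the data were seen, the ratio rose to 4.22 for Cyp3a57, 3.80 for Rptn, 3.50 for R3hdml and 3.32 for Sec14l4, moved for the other members too and stayed lowest for Pxylp1 at 1.25. Without the 2 kb flanks it was 2.90 for Rnf224, 2.12 for Rptn and 0.89 for Pxylp1, which then missed the log2 ratio of 1.

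Class 10 lay between the mature luminal-like and the progenitor-like sets for all 9 members. It held 82 and 61 nuclei, with a median of 8340.5 and 10406 reads, against 4423 and 5666.5 in class 2, and it raised markers of both luminal lists. Cyp3a57 had 37.6 and 41.3 CPM in class 10, R3hdml 29.8 and 23.6, and Ptpn5 99.9 and 97.4. Rptn had 2.59 and 11.8 CPM there, from 2 and 8 reads, with wide counting intervals. Those reads came from 1 nucleus in each replicate, which the intervals do not cover, so its place between the sets is uncertain. A barcode pair can hold more than 1 nucleus in this method, and no doublet caller was run on the deposited nuclei. The part of such pairs in the class 10 values was not tested.

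The mature luminal-like set was not uniform. Krt87 had 91.4 and 84.8 CPM in class 2 and 36.5 and 40.1 CPM in class 11. Sgsm1 had 129.8 and 181 CPM in class 2 and 77.6 and 93.8 CPM in class 11. Rnf224 had 67.0 and 63.5 CPM in class 2 and 37.3 and 32.9 CPM in class 11. For each of these genes both class 2 values lay above both class 11 values. In all, 7 members (Rnf224, R3hdml, Sgsm1, Cyp3a57, Ptpn5, Sec14l4 and Krt87) were higher in class 2 within each replicate, where 39% of 18804 genes were. Rptn had 11.7 and 15.1 CPM in class 2 and 20.6 and 16.5 CPM in class 11, the other way round in both replicates, as for 26.5% of genes. Pxylp1 had 168.8 and 172 CPM in class 2 and 174 and 132 CPM in class 11, with no common direction. Of 100 reads, 25.7 and 23.3 fell in promoter regions in class 2 and 21.1 and 18.6 in class 11, and the part of this difference in the values was not tested. With class 11 alone as the mature luminal-like set, the members past the log2 ratio of 1 fell from 9 to 6, with mean ratios of 0.87 for Rnf224, 0.90 for Krt87 and 0.97 for Pxylp1.

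Outside the mature luminal-like classes, the direction between stages differed from member to member. Sgsm1 had 40.2 and 30.4 CPM in fetal progenitor-like nuclei and 16.6 and 15.2 in adult ones. In basal-like nuclei it had 32.9 and 29.3 CPM in the fetus and 16.7 and 13.5 in the adult. Sgsm1 was thus lower in the adult in both pooled sets, opposite to its library total. By class, Sgsm1 had 25.7 and 21.5 CPM in adult class 3, beside 25.0 and 20.0 in fetal class 5. It had 11.8 and 9.11 CPM in adult class 7 and 46.2 and 34.9 in fetal class 9. The progenitor-like difference thus depended on which classes were compared. In adult basal-like nuclei, Sgsm1 had 7.03 and 21.6 CPM in class 1 and 27.6 and 5.10 in class 8. The order of these classes changed between replicates. Each value lay below both fetal basal-like values, but the counting interval of the 27.6 (17.1 to 42.2) covers them. Ptpn5 had 18.7 and 23.8 CPM in fetal and 9.80 and 12.3 CPM in adult progenitor-like nuclei. In basal-like nuclei it had 32.9 and 46.0 CPM in the fetus and 31.0 and 29.3 in the adult. The stages of Ptpn5 were thus apart in both pooled sets, but barely in the basal one (31.0 against 32.9). By class, its level in adult class 3 (18.4 and 15.2 CPM) lay above that in fetal class 5 (11.6 and 14.3). Its level in adult class 7 (5.23 and 9.49) lay below that in fetal class 9 (21.5 and 27.8). Krt87 went the other way in progenitor-like nuclei, with 5.82 and 5.18 CPM in the fetus and 26.4 and 20.8 in the adult. Its basal-like levels overlapped between stages (6.18 and 4.18 against 2.48 and 5.01). Rnf224 had 11.4 and 11.2 CPM in fetal and 23.2 and 22.8 CPM in adult progenitor-like nuclei, and its basal-like levels overlapped too.

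Counted over the list, both adult libraries lay above both fetal libraries in progenitor-like nuclei for 6 members (Rnf224, R3hdml, Rptn, Pxylp1, Sec14l4 and Krt87), where 25.3% of genes did. They lay below for 2 (Sgsm1 and Ptpn5), where 31.7% of genes did, and overlapped for Cyp3a57. In basal-like nuclei 0 members were higher in the adult without overlap, where 23.8% of genes were. There 3 members (Sgsm1, Cyp3a57 and Ptpn5) were lower in the adult, where 23.5% of genes were, and 6 overlapped. For Rptn the progenitor-like difference rested on 2 and 6 adult reads and no fetal read. For Sec14l4 the nearest progenitor-like values were 5.44 CPM in the adult and 5.31 in the fetus. In basal-like nuclei the nearest adult and fetal values were 5.01 and 6.18 for Cyp3a57 and 31.0 and 32.9 for Ptpn5. These 3 gaps lay within the counting intervals. Adult reads chose the members, so these counts are a description.

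**Figure D3:**
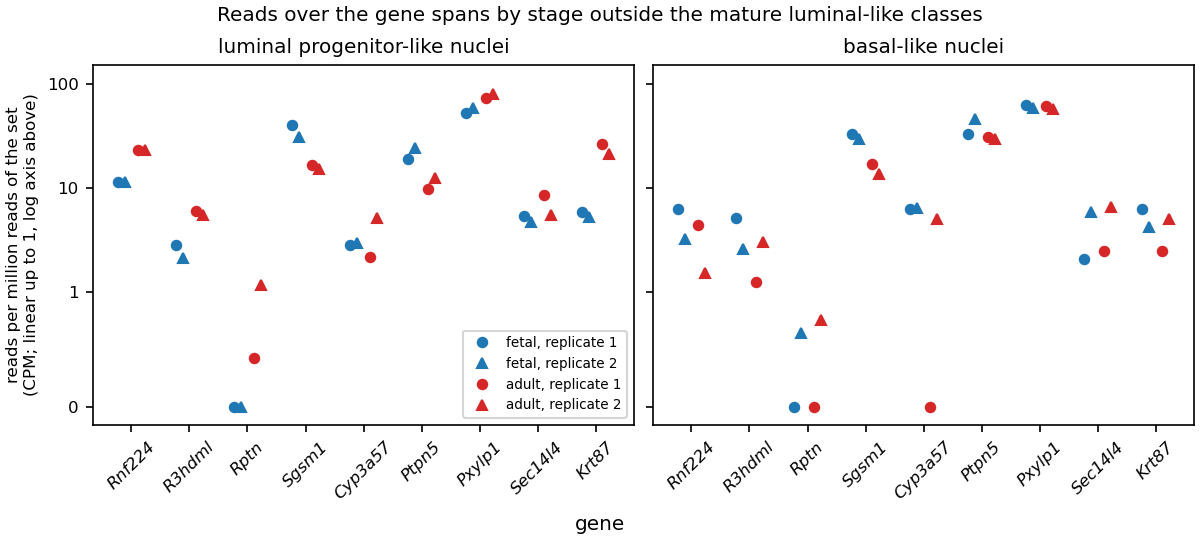
CPM of the set over each gene span (vertical axis, linear up to 1 and logarithmic above) in luminal progenitor-like (left) and basal-like nuclei (right); circles and triangles are replicates 1 and 2, blue is fetal, red is adult. On the left the adult points lie above the fetal ones for Krt87 and below them for Sgsm1 and Ptpn5, and on the right no gene has both adult points above both fetal points.

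The deposited 1000-base regions showed which stretches of each locus carried the reads. The 9 members had 13 promoter regions overlapping their spans with 2 kb flanks, and 11 of them were called higher in the adult, where 11% of 18570 promoter regions were. The exceptions were those of Sgsm1 (log2 difference 0.37 ± 0.26, SE) and Krt87 (0.61 ± 0.53). Within 50 kb of the spans there were 167 distal regions, of which 146 had enough reads to be tested. Of these, 60 were called higher in the adult, where 18.8% of 122865 distal regions were, and 8 higher in the fetus, where 16.6% were, 68 in either direction, where 35.3% of all distal regions were. A log2 ratio of 1 for mature luminal-like nuclei in both replicates was reached by 10 of 13 promoter regions, where 3.37% of all were, and by 49 of 146 distal regions, where 13.2% of all were. The height of the whole locus chose the genes, so regions inside it share that choice. Of the 167 distal regions 50 touched a span, and how far the choice bears on the others was not tested. The filter averages all 4 libraries, so a region can pass on adult reads alone. The region chr5:113267913-113268912 in Sgsm1 did so, with 0, 0, 14 and 28 reads in the fetal and adult libraries. The counts of distal regions are therefore a description. Sequences are shown for the start sites where the reads bear on them. Each is the 250 bases before an annotated RefSeq start (GRCm38.p6, 5′ to 3′ on the gene's strand), with matches to searched motifs in capitals. The table holds 9 starts for 7 of the members and none for Krt87 or Sec14l4, and exon and intron positions were not used here.

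The start of Rptn, on the plus strand of chromosome 3, is shown because most adult reads of the locus lay there. The capitals mark a match to a FOXA variant (TATTTAC, here on the other strand) and an AP-1 match (TGANTCA).
Rptn chr3:93393449-93393698: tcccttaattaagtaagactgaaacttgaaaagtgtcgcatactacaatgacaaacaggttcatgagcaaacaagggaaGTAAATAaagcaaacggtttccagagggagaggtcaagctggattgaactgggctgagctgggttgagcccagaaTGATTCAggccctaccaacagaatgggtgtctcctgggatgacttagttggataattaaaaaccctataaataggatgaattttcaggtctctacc
The Rptn stretch had 0 and 3 fetal reads and 66 and 120 adult reads. In mature luminal-like nuclei they had 11.1 and 13.4 CPM, in basal-like nuclei 0 reads in both replicates and in progenitor-like nuclei 0 and 1. The promoter region around them, chr3:93392919-93393918, held 79 and 132 of the locus's 85 and 149 adult reads. None of the 13 tested distal regions within 50 kb of Rptn reached the log2 ratio of 1 in both replicates. The one with most mature luminal-like reads, chr3:93445414-93446413 in Tchh, had 21, 79, 75 and 77 reads in the 2 fetal and 2 adult libraries, and a log2 stage difference of 0.07 ± 0.33 that was not called and changes sign when 1 library is left out. Most adult reads of Rptn lay in its promoter region.

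Cyp3a57, on the plus strand of chromosome 5, was open before and at its start. The capitals mark a GATA match (AGATAA).
Cyp3a57 chr5:145345019-145345268: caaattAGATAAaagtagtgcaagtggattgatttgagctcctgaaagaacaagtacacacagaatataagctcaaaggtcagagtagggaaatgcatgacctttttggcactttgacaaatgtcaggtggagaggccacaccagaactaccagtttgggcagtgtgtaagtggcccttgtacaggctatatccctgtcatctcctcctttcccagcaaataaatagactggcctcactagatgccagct
The Cyp3a57 stretch had 2 and 3 fetal reads and 24 and 59 adult reads, of which 15 and 49 came from mature luminal-like nuclei. The promoter region upstream, chr5:145343010-145344009, had 0, 2, 32 and 57 reads in the same order, an adult over fetal ratio of 29.5 (95% exact interval 7.94 to 248), and 0 reads in adult progenitor-like and basal-like nuclei of both replicates. The distal region with most mature luminal-like reads lay 30.7 kb from the span, at chr5:145313457-145314456. It had 8.36 and 13.1 CPM in mature luminal-like nuclei and at most 0.852 in progenitor-like and basal-like nuclei. The Cyp3a genes are near-identical neighbours, and the treatment of reads that fit more than 1 of them is not given in the sources used here, so reads of Cyp3a57 are uncertain. The nearby Cyp3a16 had a log2 stage difference of 0.09 and was not called.

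Sgsm1, on the minus strand of chromosome 5, had starts that differed. The first below is the outer start, open at both stages, and the second is an inner start, with an AP-1 match in capitals.
Sgsm1 outer start, chr5:113310787-113311036: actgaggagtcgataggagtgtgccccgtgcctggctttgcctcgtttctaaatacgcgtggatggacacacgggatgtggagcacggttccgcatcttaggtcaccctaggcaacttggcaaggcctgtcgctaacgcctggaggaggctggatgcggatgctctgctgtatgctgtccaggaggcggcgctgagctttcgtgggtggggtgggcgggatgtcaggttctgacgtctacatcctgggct
Sgsm1 inner start, chr5:113280602-113280851: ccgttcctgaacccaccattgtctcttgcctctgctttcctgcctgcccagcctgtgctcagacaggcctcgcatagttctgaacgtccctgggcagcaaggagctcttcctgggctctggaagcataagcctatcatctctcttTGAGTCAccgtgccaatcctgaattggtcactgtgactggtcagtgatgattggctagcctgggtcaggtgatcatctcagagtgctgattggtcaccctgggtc
The outer stretch had 27 and 65 fetal reads and 91 and 96 adult reads. The inner stretch had 0 and 10 fetal reads and 61 and 75 adult reads. In adult mature luminal-like nuclei the outer stretch had 12.2 and 8.68 CPM and the inner one 8.88 and 8.80, and in adult progenitor-like nuclei 2.34 and 2.33 against 0.426 and 0. The stages thus differed more at the inner start than at the outer one. A distal region within the span next to the inner start, chr5:113283193-113284192, had 11, 11, 175 and 254 reads in the fetal and adult libraries, with 25.1 and 29.0 CPM in mature luminal-like nuclei and at most 1.502 in progenitor-like and basal-like ones. A region 35492 bases outside the span, chr5:113206729-113207728, was about as high, with 30.5 and 25.1 CPM in mature luminal-like nuclei and 17, 36, 240 and 279 reads in the fetal and adult libraries (log2 difference 2.66 ± 0.28, SE). Stage differences around Sgsm1 were therefore found both inside and outside the gene. Of its 29 tested distal regions, 11 were called higher in the adult, where 18.8% of all were, and 5 higher in the fetus, where 16.6% of all were.

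Pxylp1, on the minus strand of chromosome 9, had a start with reads in every class set given below. It is shown because the region over it differed less between the sets than the other regions of the locus named below. No searched motif matched it, and 73.6% of its bases are G or C, where the median of all starts was 52.4%.
Pxylp1 chr9:96889475-96889724: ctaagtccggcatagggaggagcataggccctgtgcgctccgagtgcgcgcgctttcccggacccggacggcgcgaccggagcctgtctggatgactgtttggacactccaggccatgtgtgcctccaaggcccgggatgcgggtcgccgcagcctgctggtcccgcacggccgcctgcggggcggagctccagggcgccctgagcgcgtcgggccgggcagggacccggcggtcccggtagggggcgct
The distal region over this start, chr9:96888866-96889865, had 30.3 and 24.6 CPM in mature luminal-like, 20.9 and 19.6 in progenitor-like and 18.6 and 17.3 in basal-like adult nuclei. It was not even across classes, with 33.6 and 30.2 CPM in class 2 and 19.0 and 15.8 in class 11. In fetal progenitor-like nuclei it had 16.4 and 22.0 CPM and in fetal basal-like nuclei 15.4 and 10.6. Its stage difference of 0.43 ± 0.19 was not called. Upstream of it, the promoter region chr9:96893273-96894272 had 2 and 4 reads in the fetus and 160 and 225 in the adult, with 25.2 and 24.8 CPM in mature luminal-like nuclei and at most 0.639 in the progenitor-like and basal-like ones. The second promoter region, chr9:96891505-96892504, had 4, 12, 68 and 89 reads in the fetal and adult libraries, with 10.4 and 10.6 CPM in mature luminal-like nuclei. Inside the gene, the distal region chr9:96844263-96845262 had 7, 20, 168 and 177 reads in the same order, with 23.3 and 17.5 CPM in mature luminal-like and 2.98 and 3.50 in progenitor-like nuclei. The start shown, at 96889474, lies inside the span, whose upstream end at 96892688 falls between these promoter regions. No start was searched at that outer end. Beyond the other end of the span, 40038 bases away, chr9:96782299-96783298 had 11.5 and 15.8 CPM in mature luminal-like nuclei. Its log2 ratios were 1.66 and 1.79 in the adult replicates. The regions of Pxylp1 that were high in mature luminal-like nuclei thus lay around the outer end of the span, far inside the gene and also beyond its other end.

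In Ptpn5 and Sec14l4 the region with most mature luminal-like reads lay inside the gene. In Ptpn5, on chromosome 7, the region chr7:47108319-47109318 had 17 and 26 reads in the fetus and 441 and 576 in the adult. It had 67.5 and 60.4 CPM in mature luminal-like nuclei, 0.213 and 1.17 in progenitor-like and 5.57 and 6.51 in basal-like nuclei. The promoter region, chr7:47132132-47133131, had 18.5 and 14.3 CPM in mature luminal-like nuclei and 15, 58, 131 and 148 reads in the fetal and adult libraries. In Sec14l4, on chromosome 11, the region chr11:4034910-4035909 had 2, 6, 236 and 312 reads in the fetal and adult libraries. It had 37.8 and 34.7 CPM in mature luminal-like nuclei and at most 1.36 in progenitor-like and basal-like ones. The promoter region of Sec14l4, chr11:4031173-4032172, was far less selective, with 9.92 and 6.23 CPM in mature luminal-like and 5.97 and 3.50 in progenitor-like nuclei, and log2 ratios of 1.58 and 0.11 in the adult replicates. Sec14l4 lies beside related genes, and the same doubt about shared reads applies.

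Rnf224 and R3hdml, both on chromosome 2, had almost no reads at the starts searched here. For R3hdml the start searched, at 163492318, lies inside the span, which begins at 163491439. The upstream region of R3hdml, given below, ends just before the span, so the outer edge of the gene was not without reads. The 250 bases before the start of Rnf224 had 2, 11, 7 and 4 reads in the fetal and adult libraries, and those of R3hdml 0, 0, 0 and 4. Neither stretch lies in a deposited region, and both genes have promoter regions on either side of it. For Rnf224, the region inside the gene, chr2:25235100-25236099, had 1, 3, 132 and 174 reads in the fetal and adult libraries, and 21.1 and 19.8 CPM in mature luminal-like against at most 0.426 in progenitor-like nuclei. The region upstream, chr2:25237629-25238628, had 33.8 and 26.0 CPM in mature luminal-like and 19.2 and 22.0 in progenitor-like nuclei. The progenitor level of the Rnf224 window thus lay mostly in the upstream region, which overlaps no gene. Cysrt1 and Slc34a3 lie 2.032 and 0.206 kb from Rnf224, with windows that overlap its own. The progenitor reads therefore cannot be assigned to Rnf224 rather than to a neighbour from these files. For R3hdml, the upstream region chr2:163490262-163491261 and the inner region chr2:163493608-163494607 had 14.3 and 13.6, and 32.7 and 26.9 CPM in mature luminal-like nuclei, with at most 1.36 and 4.26 in progenitor-like ones. Of 10 tested distal regions of R3hdml, 8 were called higher in the adult, where 18.8% of all were.

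Krt87, on chromosome 15, had a weak promoter region, chr15:101438312-101439311, with 10, 18, 33 and 33 reads in the fetal and adult libraries. More reads lay farther into the gene, at chr15:101434527-101435526, with 8, 13, 185 and 200 reads in the same order. That region had 20.7 and 15.5 CPM in mature luminal-like, 9.38 and 8.17 in progenitor-like and 0.619 and 3.00 in basal-like nuclei, so the progenitor level of the locus was seen there. Others lay toward Krt7, a keratin of simple epithelia whose window overlaps that of Krt87. The distal region with most mature luminal-like reads, chr15:101414432-101415431 within Krt7, had 22.1 and 18.5 CPM in mature luminal-like, 1.49 and 1.56 in progenitor-like and 3.10 and 0.2503 in basal-like nuclei. Of 22 tested distal regions around Krt87, 14 were called higher in the adult, where 18.8% of all were, and 6 reached the mature luminal ratio, where 13.2% of all did. Krt7 lies 3.684 kb from Krt87, so with 2 kb flanks only the edges of the windows overlap. The region at chr15:101434527-101435526 lies inside the Krt87 span, away from that edge. Which of these genes a region acts on cannot be told from these files. Other keratin genes, Krt81, Krt83, Krt86 and Krt88, lie within 50 kb of Krt87. The doubt about shared reads given for Cyp3a57 and Sec14l4 applies here too.

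**Figure D4:**
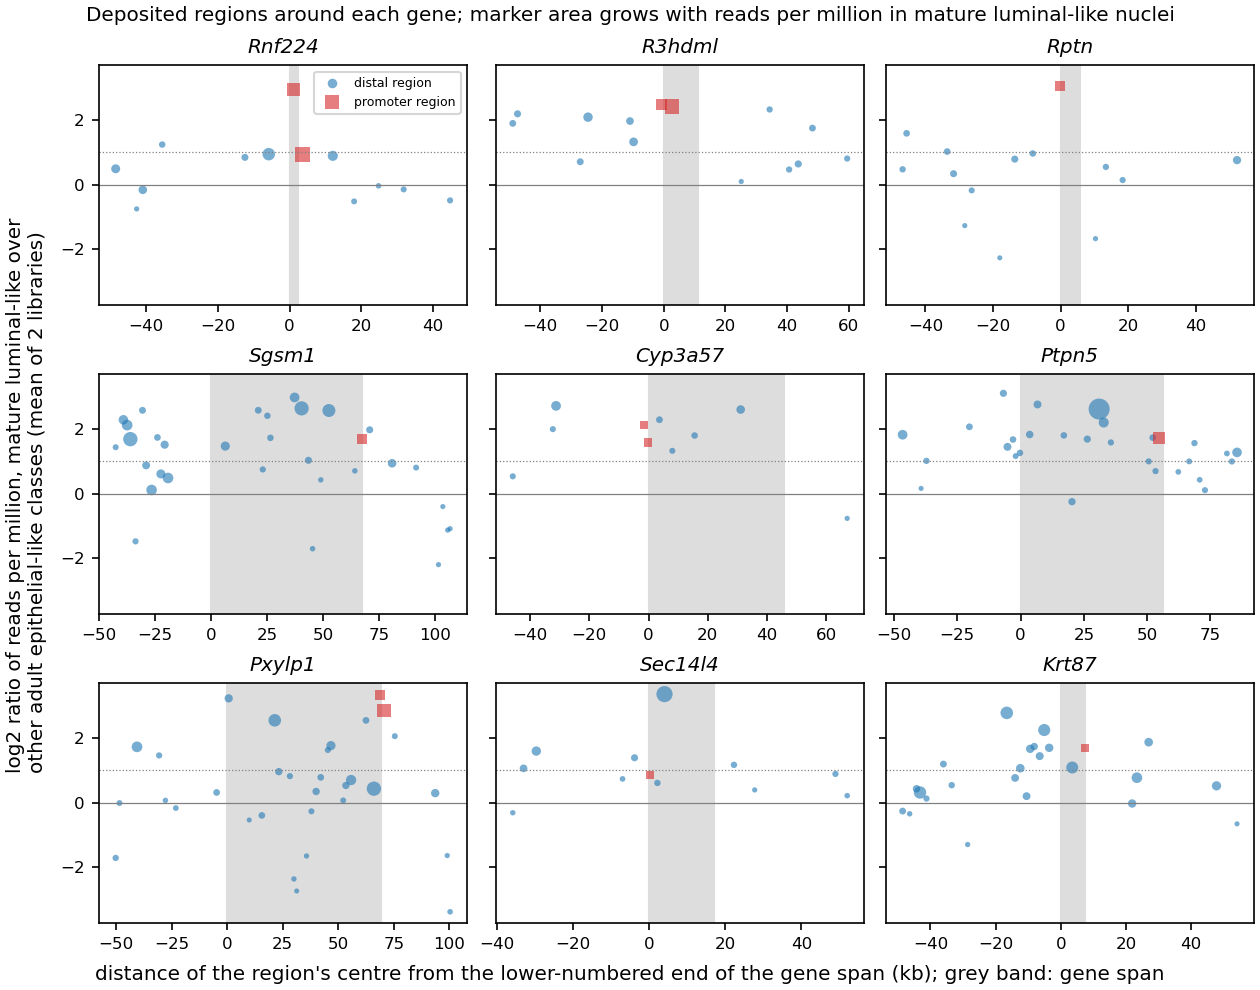
Log2 ratio of CPM, mature luminal-like over other adult epithelial-like classes (vertical axis, mean of 2 libraries, dotted line at 1), against the distance of each deposited region from the lower-numbered end of the gene span (horizontal axis, kb; grey band, gene span). Red squares are promoter regions, blue circles are distal regions and a larger marker has more CPM in mature luminal-like nuclei: 1 large circle stands out in Ptpn5 and in Sec14l4, and in Rptn the promoter region alone lies above 2.

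Motifs were searched in the 9 start stretches, on both strands, as letters only. The FOXA variant TATTTAC matched 1 of 9 (Rptn) and 2.73% of 32851 starts, and FOXA TGTTTAC matched 0 of 9 and 3.17%. The AP-1 motif TGANTCA matched 2 of 9 (Rptn and the inner start of Sgsm1) and 6.75% of all. The GATA motif AGATAA matched 2 of 9 (Cyp3a57 and Rnf224) and 9.99% of all. The palindromic oestrogen response element, the progesterone or glucocorticoid response element and the palindromic NFI motif, and RUNX (TGTGGTT) and TEAD (GGAATG), matched 0 of 9, and 0.0639%, 0.387%, 0.0365%, 4.40% and 12.6% of all, in that order. The motif letters of different factors were not seen to overlap in a printed stretch, and a match is a description of letters, not a bound site.

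The authors' deposited table of Cicero co-accessibility scores gives, for pairs of regions, how far they are open in the same nuclei over all classes pooled, so it has no replicates. All 13 promoter regions of the members had a partner at a score of 0.1 or more, where 54.8% of 19199 promoter regions did. With distal regions inside the spans included, 63 regions had 684 such pairs. The highest score of the list, 0.71, joined the Sgsm1 region next to the inner start with chr5:113295380-113296379 in the same gene. The next partner of that region, at 0.64, was chr5:113206729-113207728 within 2900026A02Rik, 76.5 kb away, which also scored 0.61 with chr5:113295380-113296379. R3hdml's inner and upstream promoter regions scored 0.68 and 0.63 with chr2:163433530-163434529, and the inner one 0.58 with chr2:163610774-163611773 in Ttpal. The inner Ptpn5 region scored 0.60 with the Ptpn5 promoter region, 0.58 with the promoter region of Tmem86a and 0.56 with a neighbour within Ptpn5.

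The remaining genes had lower top scores. Pxylp1's promoter regions scored 0.58 with each other, and the upstream one scored 0.57 with a region inside the gene and 0.54 with chr9:97123363-97124362, 230.1 kb away. Rnf224's promoter regions scored 0.55 with each other, 0.53 with chr2:25149227-25150226 and 0.50 with a region in Uap1l1. The inner Sec14l4 region scored 0.52 and 0.49 with chr11:4335757-4336756 and chr11:4339753-4340752, both about 301 to 305 kb away, and 0.46 with a region 7.87 kb away. Krt87's inner region scored 0.43 and 0.37 with regions in Krt7 and 0.39 with chr15:101506683-101507682. Cyp3a57's promoter regions scored 0.40 and 0.32 with chr5:145222476-145223475 and 0.29 with each other, and Rptn's top scores were 0.39, 0.27 and 0.19. Of the 684 pairs, 667 had a partner with enough reads, and a partner shared by several regions counts each time. In 403 of these the partner had a mature luminal log2 ratio of 1 in both replicates. Over all tested regions, 13.2% of distal and 3.37% of promoter regions did. The scores and the ratios come from the same nuclei, so this count adds nothing independent.

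Among 31 genes within 50 kb of a member, 6 reached the mature luminal ratio of 1 in both replicates, where 2.39% of all genes did. The windows of Cysrt1, Slc34a3 and Krt7 overlap those of Rnf224 and Krt87 and share the reads of the overlap, which for Krt7 is only an edge. The others were Gdap1l1 (log2 ratios 2.62 and 1.57) and the nuclear receptor gene Hnf4a (1.26 and 1.35) beside R3hdml, and Krt81 (1.34 and 1.45) beside Krt87. Hnf4a and Krt81 did not pass the stage test (log2 differences 0.16 and 0.30), while Gdap1l1 was called higher in the adult (1.22). In all, 10 neighbours were called higher in the adult, where 10.9% of genes were, and 1, Krt83, higher in the fetus, where 11.3% were. Most genes next to the members, such as Anapc2, Nelfb and Ssna1 beside Rnf224 or Sec14l2 and Sec14l3 beside Sec14l4, had log2 ratios below 1 and no stage call.

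A list of 20 genes of the hormone response of mature luminal cells, chosen with earlier results of these data known, was read for comparison and is not independent evidence. It holds all 13 mature luminal markers that gave classes 2 and 11 their name, so the height of those genes there was partly set by the naming. In the mature luminal ratio 8 of 20 reached a log2 of 1 in both replicates, where 2.39% of all genes did. Among them were the receptor genes Pgr (1.88) and Prlr (1.25) and the factors Foxa1 (1.30), Greb1 (1.68) and Spdef (1.36). The rest were the secreted Areg (2.03) and Tnfsf11 (1.20) and the serotonin-synthesis enzyme Tph1 (2.04). Of these genes only Greb1 and Spdef were not among the naming markers. The list's median was 0.83, beside 2.19 for the members. Esr1, the oestrogen receptor gene, had 211 and 240.0 CPM in mature luminal-like nuclei and 113 and 112 in the others, with log2 ratios of 0.89 and 1.10. By stage, 11 of 20 were called higher in the adult, 1 (Tbx3, log2 -0.45) higher in the fetus and 8 not called, where 10.9% of genes were called higher in the adult. Tnfsf11 (log2 -0.35) and Spdef (0.02) were high in mature luminal-like nuclei and did not pass the stage test.

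The members' profiles over the 14 classes, as log2(CPM + 0.5), had Pearson correlations between pairs of 0.43 to 0.94, with a median of 0.83 over 36 pairs. Against the mean of the other members, Pxylp1 had the highest r, 0.97, and Rnf224 the lowest, 0.73. The classes share libraries and differ in depth, so these are descriptions. Likeness among the members was also partly set by their selection for adult or mature luminal reads. Among 14958 other genes with at least 500 reads, those most like the members' mean were Tlcd4 (0.97), Rab3ip (0.94), Mcat (0.94), G6pdx (0.94), Dhx34 (0.94), Adap1 (0.94), Nipal1 (0.93), Fbxw11 (0.93), 4930467E23Rik (0.93) and Herc2 (0.93). The nearest single genes were Mal for Rnf224 (0.94), Foxa1 for R3hdml (0.94), Tubg2 for Rptn (0.92), Iqca1l for Sgsm1 (0.94) and Tlcd4 for Cyp3a57 (0.96). They were Nostrin for Ptpn5 (0.93), Mcat for Pxylp1 (0.96), Bco1 for Sec14l4 (0.96) and Podxl for Krt87 (0.96). With Spearman's rho in place of r, 4 of the 10 genes were shared.

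Some members were open in a small fetal class. Class 13, noticed after the values were seen, held 40 and 66 fetal nuclei and raised 4 of 13 mature luminal markers (Foxa1, Ly6a, Calca and Tph1), 4 of 10 progenitor markers and 2 of 4 endothelial ones. Summed over the 9 members it had 248 and 255 CPM, against 144 and 141 in the fetal nuclei of classes 4, 5, 9 and 12 together. R3hdml had 27.2 and 34.3 CPM there, from 8 and 21 reads, and at most 5.15 in any of the fetal classes 4, 5, 9 and 12. Sgsm1 had 71.5 and 55.6 CPM in class 13 and at most 46.2 and 34.9 in those classes. With Cyp3a57 (13.6 and 6.54) and Sec14l4 (27.2 and 9.81), 4 members lay above each of these classes in both fetal libraries, where 12.2% of genes did. Stromal-like class 6, with 23 and 33 fetal nuclei, was not among the classes compared. Sec14l4 had 0 and 11.4 CPM in class 6, above its class 13 level in replicate 2. R3hdml (13.8 and 5.70), Sgsm1 (0 and 22.8) and Cyp3a57 (0 and 0) were lower in class 6 than in class 13. Cyp3a57 rested on 4 reads from 2 nuclei in each library, and its 6.54 CPM lay beside 6.43 in class 4. Sec14l4 rested on 8 and 6 reads, from 2 nuclei in each library. Rnf224 (0 and 9.81), Rptn (0 and 4.90), Ptpn5 (27.2 and 19.6), Pxylp1 (74.9 and 101) and Krt87 (6.81 and 13.1) did not lie above each of classes 4, 5, 9 and 12 in both libraries. The level of R3hdml in class 13 lay mostly at its inner promoter region, with 27.2 and 19.6 CPM.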

How the data were processed

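Reads of single-nucleus ATAC-seq were taken from 4 libraries. The authors deposited read positions with barcodes, lists of kept nuclei, region lists, a class and a read count per nucleus, and co-accessibility scores for pairs of regions, per the file headers. Bowtie2, MACS2, bedtools and the build mm10 are named in the submitters' processing notes, with no settings; any shift of cut sites and the handling of duplicates and of reads that fit several places are not given in the sources used here. The deposited count of reads equalled the listed reads in all 7846 nuclei. Both ends of a fragment are listed, so counting intervals are too narrow. Every listed nucleus had at least 2000 reads, and 86.9% to 95.3% of reads lay in listed nuclei.

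Here reads overlapping a gene span with 2 kb flanks or a 1000-base region were counted per library and class (Python 3.11.15, pandas 2.3.3). Stage was tested on library sums with edgeR 4.0.16 (TMM, quasi-likelihood, features averaging 10 reads or more, Benjamini-Hochberg over all features of a kind, adjusted p under 0.05), and DESeq2 1.42.0 was an alternative. Gene spans and start sequences are RefSeq's (GRCm38.p6). A class was named where at least 3 markers of a list were raised by log2 0.5 over the other classes and 1.5 times as large a share as the next list. The members, gene lists and tests were chosen with earlier results of these data known. Named were the 9 members, their promoter regions, the distal region with most mature luminal-like reads, the 3 highest pair scores of each, neighbours within 50 kb, the hormone-response list and the genes most alike in profile. The labels call the replicates biological but name no animals, batch or run, so p-values measure the spread between these libraries, and any batch shared by a stage's libraries cannot be told apart from age. Each fetal library used 16 tagmentation wells and each adult library 32, at 2000 nuclei a well. That difference cannot be told apart from age either. On simulated counts for the promoter regions (18471 tested), the fit recovered 54% of 2-fold and 88% of 8-fold changes, with 10 false calls. The simulated spread between replicates was a fixed value not estimated from these libraries, so these rates hold for that spread only. Distal regions were not searched for motifs because no genome was used.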

Additional observations from a re-analysis of the deposited data

How the results depend on the processing

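The members were chosen for adult or mature luminal reads, so nothing is read from the steadiness of the members' counts below. The 9 gene spans called higher in the adult were 9 under every alternative run: DESeq2, stricter and no filter, other scalings, all barcodes, read midpoints, no flank and leaving out each library (range 9 to 9). Promoter regions stayed at 11, leaving out each library included (11 to 11), except with a filter at a mean of 50 reads, where 9 were tested and 8 called. Of distal regions, 60 of 146 became 43 with DESeq2 and 44 to 62 without 1 library. With a filter at a mean of 50 reads, 41 were tested and 20 called, and within 10 kb there were 67 and 32, because both settings test fewer regions. For the Rptn region in Tchh the log2 difference ran from -0.12 to 0.40 without 1 library, and was -0.12 without fetal replicate 1 and -0.07 without adult replicate 1; the cause was not tested. The region over the Pxylp1 start shown above became called with no filter (0.58), with the block (0.43) and without adult replicate 2 (0.60). The replicate numbers pair nothing in the labels. Same-numbered libraries deviated together with r = 0.26 over 18804 genes, and the fit with the replicate block called 9 spans, 11 promoter and 59 distal regions, and 6424 genes in place of 4172. Members past the mature luminal ratio were 9 without either adult replicate, and 8 with no flank or with shares of nuclei in place of reads, Pxylp1 then falling to 0.89 and 0.85. Hormone-response genes past it were 9 without either replicate and 6 with class 11 alone. Pairs numbered 1104 at a score of 0.05 and 201 at 0.25, since the threshold sets the count. At 2 to 9 fetal reads, as at Rptn, levels are set by a few reads.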
